A study of Caenorhabditis elegans with 2 samples.

Results

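The 5 actin genes of C. elegans, act-1 to act-5, were examined in region lists from ChIP-seq of the GATA-type transcription factor ELT-4. They are 5 of the 19973 protein-coding genes that the annotation places on the 5 autosomes and X. The genes were taken by symbol, but the family was chosen from earlier results of the same lists. In these, act-4 and act-5 had peaks in the list that had passed a filter for reproducibility. Signal, rank and number of regions at these genes are therefore a description, with no test. The samples were whole late embryos of hermaphrodites of strain OP111, with the genotype unc-119(ed3) III; wgIs111. Embryos were collected 3 hours after synchronization by bleaching of eggs. In this strain an integrated transgene makes ELT-4 with GFP and FLAG at its C-terminus, and both samples carry it, so that animals hold additional copies of elt-4. Chromatin was sheared by sonication and precipitated through the GFP tag, although the antibody entry of the labels reads elt-4. There were 2 biological replicates of this single group, so no conditions were compared, and no list from untagged animals was used here. Whole embryos mix all tissues, so a region cannot be placed in muscle, gut or any other cell type.

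Actin is the globular protein that polymerizes into the filaments of muscle and of the cell cortex. act-1, act-2 and act-3 form a cluster on chromosome V, and they and act-4, on X, are used in muscle and other cells. act-5, on chromosome III, is the divergent member, needed for the microvilli of the intestine. ELT-4 is a small relative of the intestinal GATA factor ELT-2, and GATA factors are named for a core site with the letters GATA.

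A region was assigned to a gene when its summit lay in the gene body or within 2000 bp of it. The regions called on both replicates pooled gave 18 summits at the 5 genes, the list of replicate 1 gave 16 and that of replicate 2 gave 15. These 3 lists held 30000 regions each and were deposited as peaks together with background, meant as input to a later filter, so that a region in them is not by itself a peak. The list of peaks after an irreproducible discovery rate (IDR) filter, which held 342 of the pooled regions, gave 3. These 3 ranked 156, 178 and 300 in the IDR list as in the pooled list, and the lowest signal of the IDR list was 78.7. An IDR peak is thus a region of high pooled signal, and the name does not by itself mean that its signals in the 2 replicates were alike. All 5 genes had a pooled region, beside 78.7% of all protein-coding genes by the same rule. All 5 also had one in replicate 1 (80.4% of all genes) and in replicate 2 (80.8%). An IDR peak lay by 4 of the 5 genes, beside 2.67% of all genes. The family was chosen for such peaks, and act-2 and act-3 share 1 of them, so nothing is read from this count. Of the 18 pooled regions 3 (16.7%), the IDR peaks, had a q-value of at most 0.05 as deposited, beside 4.26% of all pooled regions. The members were chosen for such peaks, so nothing is read from this share either. At the edge of the window, the farthest summit inside lay 1944 bp from act-5 (signal 43.5), and the nearest outside lay 2116 bp from act-5 (signal 24.9). The nearest outside the act-2 window lay 2347 bp from act-2 (signal 53.7). It lies within the act-1 window and is counted among the 18.

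**Figure D1:**
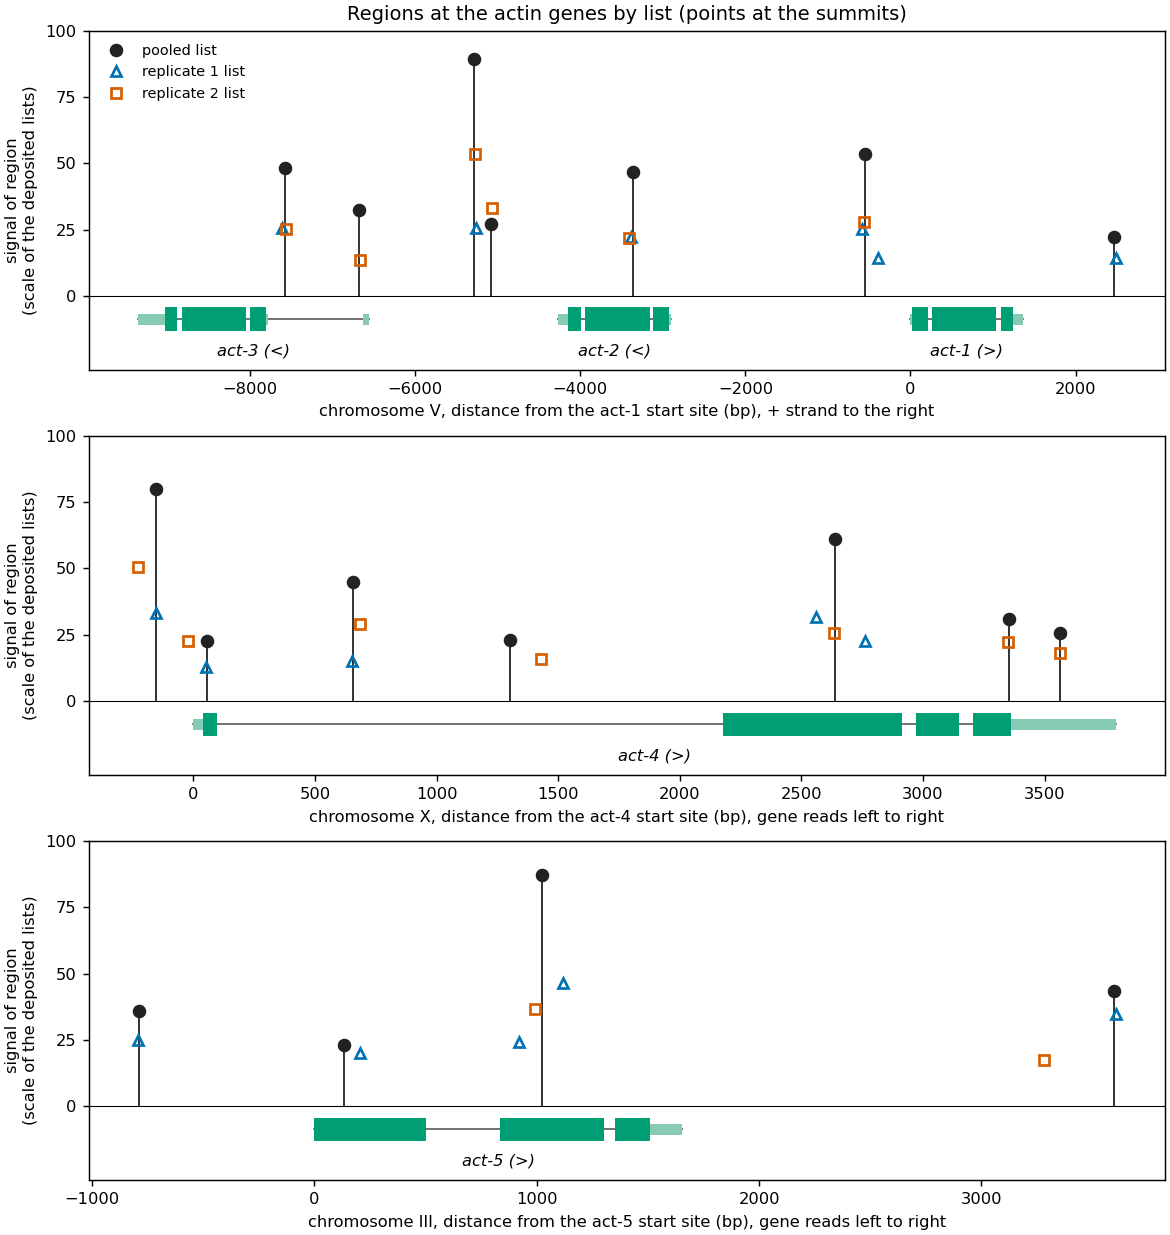
Signal of each region at its summit (vertical axis, scale of the deposited lists) against distance in bp from a start site, for the act-1 to act-3 cluster, act-4 and act-5. Lines with circles are pooled regions, triangles replicate 1 and squares replicate 2, dark green boxes are coding exons and pale boxes untranslated exons. The strongest pooled points are between act-2 and act-3 (89.4), before act-4 (80.05) and in the second exon of act-5 (87.1), and no summit lies in act-1.

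The strongest regions of the family lay in different parts of their genes. At act-2 and act-3 it was intergenic, at act-4 it lay in the promoter, taken here as 1000 bp upstream to 200 bp downstream of a start site, and at act-5 it lay in coding sequence. At act-1 the strongest region lay in the promoter and was no IDR peak. Pooled signals of the strongest regions were 89.4 for act-2 and act-3, 87.1 for act-5, 80.05 for act-4 and 53.7 for act-1. In replicate 1 act-5 was highest (46.6), followed by act-4 (33.1), with the region of act-2 and act-3 (25.5) and that of act-1 (25.3) close together. In replicate 2 the region of act-2 and act-3 was highest (53.7), followed by act-4 (50.4), act-5 (36.7) and act-1 (27.8). The order of the 3 strongest thus differed between the replicates, and act-1 was last in both. The replicate means were 41.8 ± 12.2 for act-4, 41.7 ± 6.95 for act-5, 39.6 ± 19.9 for act-2 and act-3, and 26.6 ± 1.79 for act-1 (SD, n = 2). The first 3 means lay within 1 SD of each other. The act-1 mean lay below those of act-4 and act-5 by more than 1 SD of either, and within 1 SD of that of act-2 and act-3. Signals were not scaled between the lists, whose medians were 16.4 in replicate 1 and 18.3 in replicate 2.

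**Figure D2:**
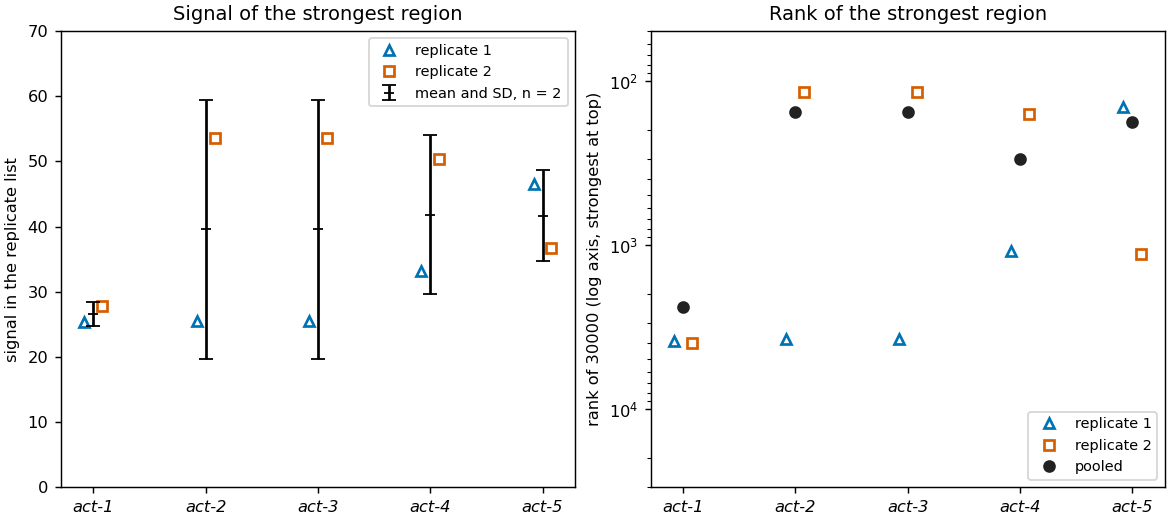
The strongest pooled region of each gene in the replicate lists: signal with mean and SD of 2 lists on the left, and rank among 30000 regions on a log axis with the strongest at the top on the right. The region shared by act-2 and act-3 has 25.5 in replicate 1 and 53.7 in replicate 2, and act-1 lies near 26.6 in both.

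The cluster on chromosome V spans 10726 bp, and it held 6 pooled summits. On ce11, act-1 (WBGene00000063) lies at chrV:11081052-11082415 on the plus strand, act-2 (WBGene00000064) at chrV:11076777-11078154 and act-3 (WBGene00000065) at chrV:11071690-11074498, both on the minus strand. The IDR peak of the cluster, at chrV:11075535-11076004, ranked 156 in the pooled list with a q-value of 0.00234. The summit lay 1007 bp beyond the 3′ end of act-2 and 1272 bp upstream of the distal act-3 start site, outside the promoter window of either gene. The annotation has a pair of non-coding RNA genes there, T04C12.15 and T04C12.21, on opposite strands. The peak ranked 3748 in replicate 1 (q-value 0.178) and 118 in replicate 2 (q-value 0.0132). Its signal in replicate 2 was 2.11 times that in replicate 1, whereas over the 342 IDR peaks this ratio had a median of 1.17 with quartiles of 0.888 and 1.44. A weaker pooled region overlapped it, with its summit 806 bp from act-2 (signal 26.9, rank 19636). Replicate 2 had a region there of its own, with a signal of 33.0, and replicate 1 had none. The sequence within 100 bp on each side of the pooled summit is shown, on the strand of act-2 and act-3, because this peak has the highest pooled signal of the family; in replicate 1 the strongest regions of act-4 and act-5 were higher. It holds no GATA on either strand, while the windows around the nearby summits of both replicate lists do:
chrV:11075670-11075870 (ce11, minus strand): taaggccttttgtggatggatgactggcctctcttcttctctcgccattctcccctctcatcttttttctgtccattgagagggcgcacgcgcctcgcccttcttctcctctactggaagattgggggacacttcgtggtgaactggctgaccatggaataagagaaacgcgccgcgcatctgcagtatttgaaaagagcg

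The next strongest regions of the cluster had similar signals in both replicates. The act-1 promoter region, at chrV:11080266-11080735, had its summit 551 bp upstream of the start site, within the non-coding RNA genes T04C12.16 and T04C12.25. It had signals of 25.3 and 27.8 in replicate 1 and 2 and ranked 3856 and 4002. The act-3 region at chrV:11073242-11073711 lay 213 bp upstream of the proximal start site, in the first intron of the transcripts that start at the distal site, with signals of 25.6 and 25.1 and ranks of 3671 and 5892. The act-2 region at chrV:11077453-11077922 lay in the coding sequence of exon 2, with signals of 22.3 and 21.8 and ranks of 6093 and 9273. In these 3 regions the replicate signals differed little, and the pooled q-values were 0.121, 0.202 and 0.237. The remaining region of the cluster lay near the distal act-3 start (pooled signal 32.2) and was listed in replicate 2 at 13.4 and not in replicate 1. Outside the cluster, a region 1097 bp beyond act-1 (pooled signal 22.3) was listed in replicate 1 at 14.1 and not in replicate 2. act-2 had no region in its promoter, and act-1 had none in its gene body.

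act-4 had the most regions in the pooled list, 7, spread from the promoter to the 3′ end. In replicate 1 it had 5, as did act-5, and in replicate 2 it had 7. It is the longest of the 5 genes, and a longer gene gives a wider window. The gene (WBGene00000066) covers 3793 bp at chrX:4960621-4964413 on the plus strand. The IDR peak at chrX:4960231-4960700 had its summit 155 bp upstream of the start site, ranked 300 in the pooled list and had a q-value of 0.0117. In replicate 1 its signal was 33.1 (rank 1098) and in replicate 2 it was 50.4 (rank 160), with the summit of replicate 2 placed 229 bp upstream of the start. A region in exon 2, at chrX:4963025-4963494, ranked second for this gene with a pooled signal of 61.1, rank 1361 and a q-value of 0.0555. Replicate 1 gave it 31.6 and replicate 2 gave it 25.7, and replicate 1 also had a weaker region with its summit on the other side (22.7). The region in the long first intron, at chrX:4961042-4961511, had a pooled signal of 45.0, but 14.99 in replicate 1 (rank 18307) and 28.9 in replicate 2 (rank 3400). The other 4 regions of act-4 had pooled signals from 22.5 to 31.0. Of these, the region in the intron, which lies upstream of the second act-4 start site, and those at the end of the coding sequence and in the 3′ UTR overlapped no region of replicate 1. The window around the promoter summit, shown because the summit lies close to a start site, is rich in G and C (62.2%) and holds no GATA:
chrX:4960366-4960566 (ce11, plus strand): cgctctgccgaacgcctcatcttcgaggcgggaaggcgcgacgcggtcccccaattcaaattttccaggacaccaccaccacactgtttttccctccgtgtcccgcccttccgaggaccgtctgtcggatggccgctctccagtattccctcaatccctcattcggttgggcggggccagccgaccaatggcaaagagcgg

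act-5 (WBGene00000067), the intestinal actin gene, lies at chrIII:13604412-13606066 on the minus strand and had its strongest region in coding sequence. The IDR peak at chrIII:13604806-13605275 had its summit in exon 2, at base 691 of the 1125 coding bases, with pooled rank 178 and a q-value of 0.00234. Replicate 1 gave a signal of 46.6 (rank 145, q-value 0.00164) and replicate 2 gave 36.7 (rank 1139, q-value 0.0602). Replicate 1 had a further region here with its summit on the other side of the pooled one (24.2). The peak was the 1 actin region of the IDR list in which replicate 1 was the higher. Upstream of act-5 the pooled list had a region with its summit 788 bp before the start site (signal 35.9, rank 9797), which replicate 1 listed at 24.9 and replicate 2 did not list. A region in exon 1 (pooled signal 23.1) was likewise listed in replicate 1 at 19.97 and not in replicate 2. The region 1944 bp from act-5, within an annotated pseudogene, had 34.7 in replicate 1 (rank 866) and 17.2 in replicate 2 (rank 17507), where the overlapping region had its summit 1627 bp from the gene. Replicate 1 therefore gave the higher signal, or the only one, in all 4 pooled regions of act-5. The window around the coding summit holds TGATAA on the strand opposite to the gene, and the capitals mark the 4 letters of GATA within it, read as TATC:
chrIII:13604941-13605141 (ce11, minus strand): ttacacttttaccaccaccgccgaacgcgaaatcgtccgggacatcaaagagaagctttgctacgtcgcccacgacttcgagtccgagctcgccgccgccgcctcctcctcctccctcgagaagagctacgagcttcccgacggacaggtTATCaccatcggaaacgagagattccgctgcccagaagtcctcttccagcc

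Of the 18 pooled regions 11 overlapped a region of both replicate lists (61.1%, beside 55.9% of the 30000 pooled regions). Of these 11, replicate 1 gave the higher signal in 5 and replicate 2 in 6. Where weaker regions overlap a strong neighbour the same replicate region was counted for both. By place in protein-coding genes, 6 summits were coding, 4 were in introns, 1 was in a UTR and 7 were intergenic. Of all pooled regions, 38.7% had a coding summit, 27.9% an intron summit, 3.95% a UTR summit and 29.4% an intergenic one. In a promoter window lay 8 actin summits (44.4%), beside 26.7% of all pooled summits for the promoters of any protein-coding gene. The 8 became 3 with a narrower promoter window and 13 with a wider one. Actin regions were taken only within 2000 bp of a gene, whereas the list as a whole was not.

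The coding sequences of act-1 and act-3 were identical over all 1128 bases. That of act-2 differed from them at 43 bases and that of act-4 at 66, while act-5, 3 bases shorter, differed from act-1 in 182 of 1128 aligned positions. The proteins were closer: act-1 differed from act-4 at 1 of 376 residues, from act-2 at 3 and from act-5 at 29. Sequence reads from identical stretches cannot be placed in 1 copy, and the sources used here do not say how the authors' alignment treated them. Every coding word of 36 bases in act-1 and in act-3 occurred more than once in the genome (1023 of 1023 words in each). The share was 42.3% in act-2, 18.9% in act-4 and 1.47% in act-5. All 2681 repeated words, of 5077 in the 5 genes, were found in another actin gene. Pooled summits in coding sequence were found in act-2 (1), act-4 (3) and act-5 (2), and in neither act-1 nor act-3. The strongest coding region had a pooled signal of 87.1 in act-5, 61.1 in act-4 and 46.8 in act-2. The part of repeated sequence in the presence or strength of coding regions was not tested.

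**Figure D3:**
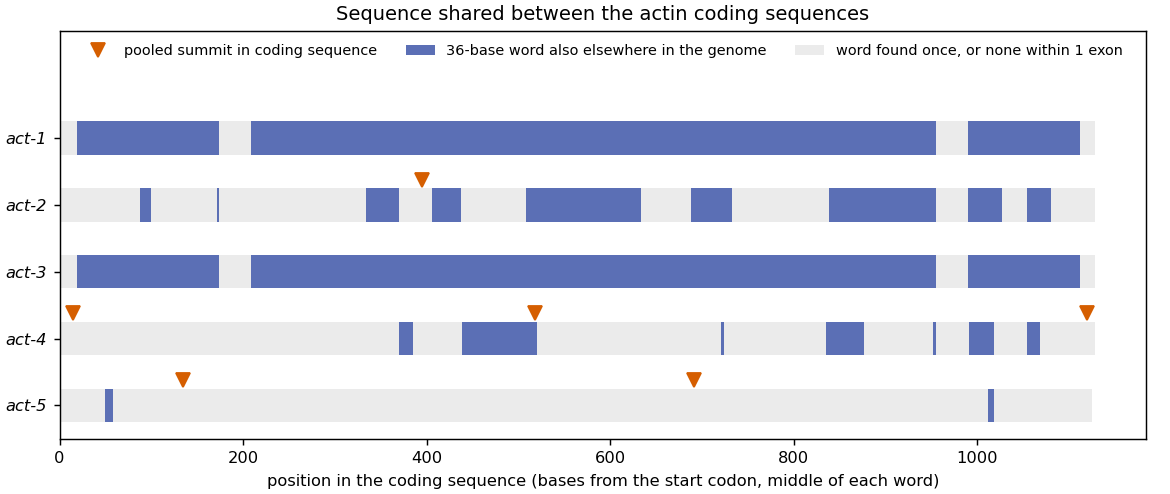
Position along each coding sequence in bases from the start codon, with blue where the 36-base word centred there occurs elsewhere in the genome and grey where it does not or where no word stays within 1 exon. Triangles mark pooled summits in coding sequence, which stand on act-2, act-4 and act-5 and on neither act-1 nor act-3, where every word is repeated.

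The copies on chromosomes V and X are compared around the act-2 coding summit, since act-1, act-2 and act-3 are nearly the same there and act-2 alone among these 3 has a pooled region that covers it. The 61 bases centred on base 395 of act-2 are shown on the coding strand, with capitals for bases that differ from act-2. act-1 and act-3 differ from it at 1 base and act-4 at 5. The matching base of act-4 also lies in a pooled region, that of exon 2 (signal 61.1). With 100 coding bases on each side the differences are 6 for act-1 and act-3 and 16 for act-4. In the genomic window of 100 bp on each side of this act-2 summit 40.4% of the 36-base words were repeated, all in act-1 and act-3:
act-1: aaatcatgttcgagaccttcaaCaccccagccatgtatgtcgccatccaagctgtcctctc
act-2: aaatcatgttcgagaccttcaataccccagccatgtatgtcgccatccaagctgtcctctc
act-3: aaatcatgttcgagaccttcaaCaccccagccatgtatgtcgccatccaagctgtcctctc
act-4: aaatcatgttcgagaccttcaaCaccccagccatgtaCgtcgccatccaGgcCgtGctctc

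The same comparison around the act-5 summit, base 691, is shown because this is the strongest coding summit of the family. Capitals mark bases that differ from act-5, which are 13 in act-1, act-3 and act-4 and 14 in act-2. The matching base of act-4 lies in the act-4 pooled region of exon 2. None of the 36-base words in the act-5 summit window was repeated. In the window of the strongest act-4 coding summit 48.8% of the words were repeated. The window at the end of the act-4 coding sequence had 9.04%, and that over the start codon had none. Of the 12 windows outside coding sequence, those of act-1 to act-4 held no repeated word, and the windows of the 18 regions shared at most 11 bases in a row when 1 or both lay outside coding sequence. Over the IDR peaks, 80.1% had no repeated word in the window:
act-1: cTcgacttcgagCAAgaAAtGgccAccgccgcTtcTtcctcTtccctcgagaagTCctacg
act-2: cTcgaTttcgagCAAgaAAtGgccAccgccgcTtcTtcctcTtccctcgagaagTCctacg
act-3: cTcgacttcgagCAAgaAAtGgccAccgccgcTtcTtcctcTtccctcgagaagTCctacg
act-4: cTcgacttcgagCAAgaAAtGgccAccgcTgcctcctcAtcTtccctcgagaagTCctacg
act-5: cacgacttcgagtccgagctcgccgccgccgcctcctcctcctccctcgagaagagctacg

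GC content and motifs within 100 bp on each side of the summits varied widely within the family. GC content ran from 25.9% in the intron window near the distal act-3 start to 62.2% in the act-4 promoter window, with a median of 50.2%. The median was 43.3% over all pooled regions and 53.7% over the IDR peaks. The 3 IDR peaks of the family had 52.7% (act-2 and act-3), 59.2% (act-5) and 62.2% (act-4). Windows of the 9 strongest actin regions had between 47.3% and 62.2%, and those of the 9 weakest between 25.9% and 56.7%. TGATAA, searched on both strands, was present in 3 of the 18 windows (16.7%), beside 12.5% of all pooled windows. These were the coding and the upstream window of act-5 and the window over the act-4 start codon. AGATAA was present in 2 of the 18 (11.1%), beside 8.41% of all pooled windows. GATA, which both longer motifs contain, was present in 14 (77.8%), beside 65.8% of all pooled windows. Of the 3 IDR peaks, GATA was absent from the window of the act-2 and act-3 peak and from the act-4 promoter peak. A match describes letters and is no site, and an absent match says nothing of the factor.

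**Figure D4:**
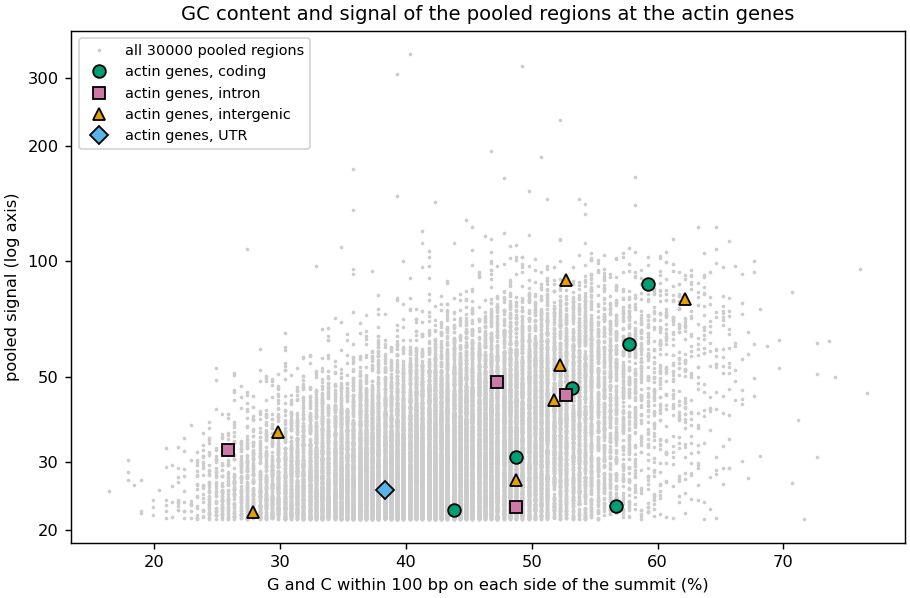
Pooled signal on a log axis against GC content in percent within 100 bp on each side of the summit, for all 30000 pooled regions (grey) and the 18 regions at actin genes, coloured by place. The 3 strongest actin points have a GC content between 52.7% and 62.2%, and the points with the lowest GC content, at 25.9% to 29.9%, have signals of 22.3 to 35.9.

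Genes listed under actin turnover, nucleation, muscle filaments and myosin, the intestinal brush border and actin-like proteins were set beside the family. The lists were drawn up from known roles. Of 61 such genes 59 had a pooled region and 2 (3.28%) had an IDR peak, beside 78.7% and 2.67% of all protein-coding genes. The share with an IDR peak was near that background. These genes are longer than most, with a median span of 3953 bp against 2027 bp for all protein-coding genes, and a longer gene gives a wider window. Among the 11 genes of actin monomers and filament turnover, pfn-3, which encodes a profilin, had an IDR peak 1420 bp from the gene, with signals of 35.6 in replicate 1 and 42.1 in replicate 2. Among the 8 genes listed under muscle myosin, unc-54 had an IDR peak 163 bp from the gene, with 37.9 and 46.8. It encodes the major myosin heavy chain of body wall muscle. None of the 17 genes of nucleation, which include the Arp2/3 subunits and formins, had an IDR peak. The same held for the 14 genes of the muscle thin filament, the 8 of the intestinal brush border and the 3 actin-like genes. The genes without a pooled region were wve-1, a nucleation regulator, and plst-1, a plastin.

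By the sum of absolute log2 differences in the strongest signal over the pooled list and both replicate lists, the genes most like act-2 and act-3, which share the region with the highest pooled signal of the family, were W01B6.8, col-2 and ndc-80. The sum was 0.20 for each against act-2 and 0.21 against act-3, among 13355 genes with a region in all 3 lists. These 3 genes share the same region, with a signal of 78.9 in the pooled list, 25.2 in replicate 1 and 53.9 in replicate 2. The likeness is thus that of 1 region, and it is a description of levels in 3 lists.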

How the data were processed

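ChIP-seq regions of tagged ELT-4 in late embryos were used from 4 deposited lists on build ce11: 2 replicate lists, the list called on both replicates pooled, and the IDR list. The deposited notes derive the pooled and replicate lists from alignments and 1 further file whose content they do not state, and the labels name a possible control experiment. For aligner, caller, versions and IDR threshold, the entry is: not given in the sources used here. Signal is the strength the authors deposited for each region, with no scale stated, and a second deposited column is the −log10 of a q-value, converted here to q. Depth is unknown, since no counts were used. Nearly all regions have 1 fixed width per list, so a summit is mostly the middle. The ce10 lists were not used, since no genome of that build was at hand.

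WBcel235, the same assembly as ce11, with Ensembl annotation 115, was read with Python 3.11.15, pandas 2.3.3 and Biopython 1.88. On each chromosome, the last pooled region ended within the reference length. Regions were ranked by signal within a list. A pooled region was matched to the strongest replicate region that overlapped it by at least 1 bp. Windows for GC content and motifs reach 100 bp to each side of a summit. Words of 36 bases were sought on both strands of the genome. Assignment and word search were tested on simulated data. Named genes are act-1 to act-5, listed genes with an IDR peak, and the 3 genes most like the actin gene with the strongest region, by the measure given with them. The listed genes without a pooled region were named after their values were seen. Members and lists were chosen with earlier results of these data known. Alternatives were other windows, lists, word lengths, promoter limits and matching rules. No test was made, and all values are descriptions of 2 replicates labelled biological, whose source cultures are not described.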

Additional observations from a re-analysis of the deposited data

How the results depend on the processing

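No paired analysis was possible because there was a single group. All 5 genes had a region in each replicate list alone, with a wider window and with any overlap. With the gene body alone, with 500 bp around it, or with pooled regions of q at most 0.05, 4 genes did. The number of actin regions fell from 18 to 11 within gene bodies and to 3 at q of at most 0.05, and was 12 to 21 under the other windows and lists. The number of genes with an IDR peak was 1 within gene bodies and 2 with 500 bp around them. It was 1 to 3 in the 342 strongest regions of 1 replicate list, without replicate 2 (1, act-5) and without replicate 1 (3, act-2 to act-4). Summits in a promoter window numbered 3 with 500 bp upstream and 100 bp downstream and 13 with 2000 bp and 500 bp, against 8. The median GC content stayed between 45.0% and 50.5%. Repeated coding words were 58.8% of 24-mers, 49.1% of 50-mers and 43.8% of 100-mers, against 52.8%, and every coding word of act-1 and act-3 stayed repeated at each length. Regions in both replicate lists numbered 9 when summits had to lie within 100 bp, an alternative chosen after seeing the data, against 11. Taking the strongest replicate regions in the window gave the same values for act-1, act-2, act-4 and act-5, so it was no separate check there. The act-3 mean changed from 39.58 to 39.64. The ce10 alternative was not run. Depth is unknown, so a region missing from a list cannot be told from one just below its lowest signal, 11.4 in replicate 1 and 12.98 in replicate 2.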
